A study of Homo sapiens with 17 samples.

Results

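The effect of 24 and 48 h of toyocamycin on the transcriptome of YB5 cells was read from 4 of the 17 libraries of the series, picked by their labels. At each of these times, 1 library came from cells in 250 nM toyocamycin and 1 library from cells in its vehicle, DMSO. All 4 libraries bear replicate number 2 and belong to batch 1. YB5 is a reporter line made from the SW48 colon cancer cell line, in which a methylated CMV promoter keeps 1 inserted GFP gene silent, so every value below comes from a single line. PolyA RNA was sequenced, and the deposited values are reads counted per gene. The comparison asks which changes under toyocamycin were shared by both times and which were seen at 1 time only.

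Toyocamycin is an adenosine analog that is known to block the maturation of ribosomal RNA, and the study examined it as an agent acting on the kinases that control RNA polymerase II. Among these kinases, CDK9 pairs with a T-type cyclin to form P-TEFb, which releases polymerase from its pause near the start of a gene. Cells in which transcription or ribosome production is disturbed commonly stabilise p53, which switches on CDKN1A and genes of cell death, while genes of DNA replication and mitosis are turned on by E2F factors and by the complexes that bind their promoters in dividing cells.

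The 4 libraries held between 16003406 and 22121364 counts, within the 8735465 to 22121364 of the series. The toyocamycin libraries put 37.0% and 34.5% of their counts on their 100 most abundant genes at 24 and 48 h, against 18.6% and 19.3% in DMSO, and 3.49% and 3.29% on mitochondrially encoded genes, against 1.46% and 1.40%. Counts were scaled with TMM, and levels are given as CPM, counts divided by the scaled library total, so they compare libraries and not genes. The median log2 fold change of all 14491 genes tested was 0.00 at 24 h and 0.16 at 48 h under TMM. It was 0.09 and 0.39 with the size factors of DESeq2, -0.91 and -0.41 with library size alone, and -2.16 and -1.64 when mitochondrially encoded genes were held constant, so every direction below is relative to the chosen scaling. In bulk RNA, fewer cells of a kind and less RNA per cell cannot be told apart. EPCAM, CDH1, KRT8 and KRT18, which mark epithelium, were abundant in all 4 libraries, while VIL1 and CDH17 had at most 85 counts. CD3E and CDH5, which mark T cells and endothelium, had 0 counts, and the other 10 markers of immune, endothelial, stromal and liver cells had at most 46. Of the 9 such markers tested, 5 were called higher at 48 h, and their part in the results was not tested.

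At 24 h, 4446 genes were higher on toyocamycin (30.7% of the genes tested) and 4635 were lower (32.0%), or 62.7% in either direction, at a Benjamini-Hochberg adjusted p under 0.1 in edgeR's quasi-likelihood test. At 48 h, 5674 genes were higher (39.2%) and 5146 were lower (35.5%), together 74.7%. The filter on low counts let a gene pass on its level in a single library. Some genes near silence in 1 arm thus entered the test only through the arm where they were high. Requiring at least 10 counts in each library of 24 and 48 h kept all 17 recomputed counts of genes within 1.5 times those reported. The mean effect of both times was called for 75.3% of the genes, 5493 higher (37.9%) and 5413 lower (37.4%). With a single library per arm at these times, the spread was taken from the replicates of 2 h and of the last time point (72 h in the labels, a later time in the paper), and the lone libraries were assumed to vary like those. The replicates of 2 h came from 2 batches, while the 4 libraries and the last time point were of batch 1. For that reason, standard errors and adjusted p-values are printed below only for the mean effect of both times and for the effect at 48 h minus that at 24 h. These rest on the same borrowed spread and the same assumption, as each time had a single library per arm. When mitochondrially encoded genes were held constant, only 432 genes were higher at 24 h and 8714 were lower.

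Most of what was called at 1 time was called in the same direction at the other. Genes higher at both times numbered 3509 (24.2%), with median log2 fold changes of 2.08 at 24 h and 2.33 at 48 h. Genes lower at both times numbered 3695 (25.5%), with medians of -1.63 and -2.0. A test of whether the effect at 48 h departed from that at 24 h called 3755 genes (25.9%), 1613 of them higher at 48 h (11.1%) and 2142 lower (14.8%), and 604 genes of the first shared group and 879 of the second were among them. Genes called at 24 h, not at 48 h, and also called for the difference were 286 in the higher direction (1.97%) and 308 in the lower direction (2.13%). The corresponding genes of 48 h only were 578 (3.99%) and 646 (4.46%). A further 299 genes were higher at 24 h and lower at 48 h (2.06%), and 141 were lower at 24 h and higher at 48 h (0.973%). For the remainder with a call at 1 time, the difference was not called. They were 352 higher (2.43%) and 491 lower (3.39%) at 24 h, and 1446 higher (9.98%) and 506 lower (3.49%) at 48 h. Of these 1446 genes, 450 were among the protein-coding nuclear genes with an average of at least 1 CPM. Neither time gave a call for 2234 genes (15.4%). Across 11772 genes with an average of at least 1 CPM, the effects at the 2 times had a Pearson correlation of 0.818 and a Spearman correlation of 0.804. These are values across genes of 1 line and 1 batch, and genes are not independent replicates.

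**Figure D1:**
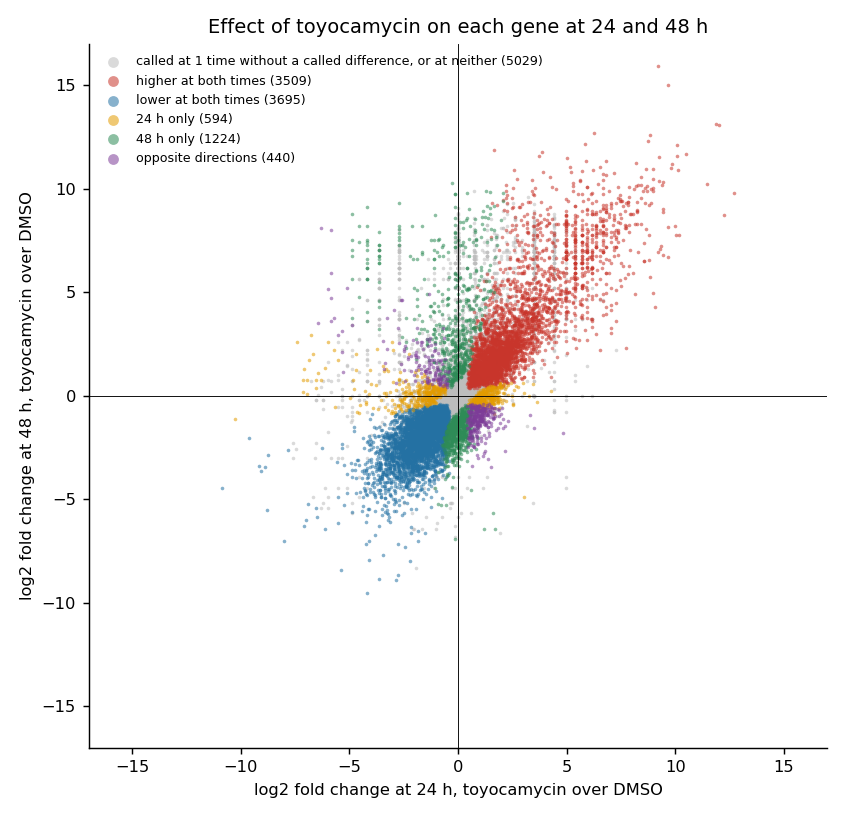
Log2 fold change of toyocamycin over DMSO at 24 h (horizontal axis) and at 48 h (vertical axis), 1 point for each of 14491 genes, coloured by the class of its calls. The 3509 genes higher and 3695 genes lower at both times lie along the diagonal, while the genes called at 1 time only spread along the axes and the 440 genes of opposite direction lie in the upper left and lower right quadrants. Columns of points far from the centre are genes with 0 or few counts in an arm.

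The DMSO libraries of 24 and 48 h correlated at 0.984 in log2 CPM and the toyocamycin libraries at 0.932. The toyocamycin arm moved more between the times than the DMSO arm for 1278 of the 1613 genes with a higher effect at 48 h (79.2%) and for 1831 of the 2142 genes with a lower one (85.5%), while this held for 71.1% of all genes tested. The last time point has 3 libraries per arm, none of them from 24 or 48 h, although their spread enters the tests. There, 3196 of the 3509 genes higher at both times were also called higher (91.1% of them and 47.0% of the genes called higher at the last time point), while 47.0% of all genes tested were called higher. Of the 3695 genes lower at both times, 3417 were called lower there (92.5% of them and 56.3% of the genes called lower at the last time point), beside 41.9% of all genes tested. Of the 286 genes higher at 24 h only, 33 were higher at the last time point and 212 were lower, while 555 of the 578 genes higher at 48 h only and 624 of the 646 genes lower at 48 h only were called in the same direction there. The mean effect of both times differed from the effect at the last time point for 3990 genes in the higher direction (27.5%) and 3131 genes in the lower direction (21.6%), 49.1% in all. It differed from the effect at 2 h for 65.0% of the genes, 4577 in the higher direction (31.6%) and 4837 in the lower direction (33.4%).

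Among the genes higher at both times, the largest rises were those of MN1, PTP4A1, NR4A2, GDF15, BHLHE41, ATF3, OPRD1, NR1D1, BARX2 and ZNF460. NR4A2, an orphan nuclear receptor of the immediate early class (chr2:156324437-156342348), went from 5.60 CPM in DMSO to 926 CPM on toyocamycin at 24 h and from 6.40 to 1117 CPM at 48 h. Its mean log2 fold change of both times was 7.41 ± 0.220 (SE; edgeR adjusted p = 1.35e-11). GDF15, a secreted stress cytokine and p53 target (chr19:18374731-18389176), had 7.25 and 6.02 CPM in DMSO and 745 and 808 CPM on toyocamycin, with a mean log2 fold change of 6.87 ± 0.380 (SE; edgeR adjusted p = 9.68e-10). For both genes the toyocamycin libraries lay far above the DMSO libraries, and the 2 times gave nearly equal levels. MN1, a transcriptional coactivator, had 0.153 and 0.284 CPM in DMSO against 39.5 CPM at 24 h and 130 CPM at 48 h on toyocamycin. ATF3, a stress-induced transcription factor, had 2.99 and 2.18 CPM in DMSO and 251 and 519 CPM on toyocamycin. Its effect was larger at 48 h by 1.51 ± 0.416 on the log2 scale (SE; edgeR adjusted p = 0.0202). BHLHE41, a repressor of the circadian clock, rose further with time, from 43.2 to 346 CPM on toyocamycin, while its DMSO libraries had 0.499 and 0.284 CPM, and the difference was 3.80 ± 0.816 (SE; edgeR adjusted p = 0.00481). NR1D1, another clock repressor, had 8.98 and 16.7 CPM in DMSO and 636 and 1892 CPM on toyocamycin. The exons of NR1D1 and BHLHE41 overlap those of THRA and SSPN on the other strand, and those of PTP4A1 overlap another gene on the same strand, so their counts are uncertain where reads could come from both. The log2 fold changes of PTP4A1, OPRD1, BARX2 and ZNF460 at either time lay between 5.94 and 9.39.

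Targets of p53 were among the clearest shared rises. Of 30 tested, 24 were higher and 4 lower at 24 h, and 26 were higher and 0 lower at 48 h, where 0 were lower also at an unadjusted p under 0.05, by DESeq2 and by the edgeR 4 form of the test. The median of their log2 fold changes, 2.7 at 24 h and 3.99 at 48 h, was positive under all 4 scalings, down to 0.42 and 2.14 with mitochondrially encoded genes held constant. The calls at 24 h were 17 higher and 6 lower with library size alone, and 7 higher and 9 lower with mitochondrially encoded genes held constant. The median of all genes at 24 h was -0.91 and -2.16 under these scalings. Over the 4 scalings, the list median lay 2.58 to 2.76 above that of all genes at 24 h and 3.78 to 3.83 above it at 48 h. CDKN1A, the inhibitor of cell cycle kinases that is the classic p53 target (chr6:36676460-36687337), had 89.8 CPM in DMSO and 2809 CPM on toyocamycin at 24 h, and 116 and 4144 CPM at 48 h. Its mean log2 fold change was 5.06 ± 0.208 (SE; edgeR adjusted p = 1.1e-10). MDM2, which encodes the ligase that degrades p53, had 42.9 and 34.6 CPM in DMSO and 243 and 500 CPM on toyocamycin. BBC3, which encodes the death protein PUMA, had 20.6 and 9.86 CPM in DMSO and 392 and 760 CPM on toyocamycin. Thus MDM2 and BBC3, unlike CDKN1A, were called for a larger effect at 48 than at 24 h, by 1.35 ± 0.348 (edgeR adjusted p = 0.0141) and 2.01 ± 0.567 (SE; edgeR adjusted p = 0.0222). The death receptor genes FAS and TNFRSF10B rose at both times, to 55.3 and 77.9 CPM from 3.11 and 3.98 CPM for the former, and to 825 and 1443 CPM from 64.4 and 97.3 CPM for the latter. The exons of MDM2, FAS and TNFRSF10B overlap those of a neighbour, so their counts are less certain. BAX, a pore-forming protein of mitochondria, had 74.4 and 73.9 CPM in DMSO and 138 and 342 CPM on toyocamycin.

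The list was not uniform. Of its 30 genes, 15 had a larger effect at 48 than at 24 h, with 0 in the other direction (2 at an unadjusted p under 0.05, 0 by DESeq2 and 0 by edgeR 4). The shares of all genes tested were 11.1% and 14.8%. XPC and DDB2, genes of DNA repair, did not rise at 24 h. XPC, which recognises damaged DNA, had 48.9 CPM in DMSO and 11.8 CPM on toyocamycin at 24 h, but 30.6 and 35.8 CPM at 48 h. DDB2, its partner in damage recognition, was lower at 24 h (33.4 against 24.6 CPM) and higher at 48 h (24.1 against 56.1 CPM). TP53I3, an oxidoreductase, differed little at 24 h (24.5 against 27.8 CPM), whereas it had 8.15 and 145 CPM at 48 h. Its difference between the times was 3.98 ± 0.311 on the log2 scale (SE; edgeR adjusted p = 7.18e-06), and part of it came from the DMSO arm, which was lower at 48 h.

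Immediate early genes, which most cells keep low and induce within minutes of a stimulus, were higher on toyocamycin at both times under TMM. Of 30 tested, 24 were higher and 3 lower at each time, and 23 were higher at both. The medians were 2.01 and 2.87, but -0.26 and 1.02 with mitochondrially encoded genes held constant. Under that scaling 7 genes were called higher and 6 lower at 24 h, and 13 and 5 at 48 h. The medians of all genes under it were -2.16 and -1.64, and those of the list lay 1.89 and 2.66 above them. MYC, a driver of growth and ribosome production, had 292 CPM in DMSO and 11669 CPM on toyocamycin at 24 h, and 411 and 6610 CPM at 48 h. Its mean log2 fold change was 4.66 ± 0.323 (SE; edgeR adjusted p = 7.77e-09). CCN1, a matrix protein, had 185 and 128 CPM in DMSO and 11306 and 12368 CPM on toyocamycin. IER3 had 321 and 600 CPM in DMSO and 7457 and 7004 CPM on toyocamycin. The 3 genes of the NR4A family rose together, with mean log2 fold changes of 5.10 ± 0.300 for NR4A1, 7.41 ± 0.220 for NR4A2 and 5.20 ± 0.243 for NR4A3, and the smallest level on toyocamycin in any of them was the 38.3 CPM of NR4A3 at 24 h.

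The AP-1 genes FOS and JUN did not move alike. FOS had 968 CPM in DMSO and 174 CPM on toyocamycin at 24 h, then 284 and 265 CPM at 48 h. The difference of 2.38 ± 0.443 (SE; edgeR adjusted p = 0.00191) rested more on the DMSO arm, which was lower at 48 h, than on the toyocamycin arm. JUN was higher at both times, with 931 and 1444 CPM on toyocamycin against 284 and 41.3 CPM in DMSO. ZFP36, whose protein degrades short-lived transcripts, was lower at both times, with 167 and 87.6 CPM in DMSO and 33.7 and 38.8 CPM on toyocamycin.

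The largest shared falls were those of CDC25B, HECTD3, CENPE, SPC24, NFKB2, GBA2, PIMREG, CC2D1A, KANK2 and DVL2. CDC25B, the phosphatase that activates mitotic kinase (chr20:3786772-3806121), fell from 121 to 4.04 CPM at 24 h and from 169 to 3.51 CPM at 48 h, a mean log2 fold change of -5.25 ± 0.192 (SE; edgeR adjusted p = 5.46e-11). CENPE, a motor protein of kinetochores (chr4:103105349-103198445), had 53.2 and 43.6 CPM in DMSO and 2.33 and 1.71 CPM on toyocamycin. NFKB2, a subunit of NF-kappaB, had 54.1 and 79.5 CPM in DMSO and 2.94 and 2.85 CPM on toyocamycin. DVL2, which relays Wnt signals, had 89.8 and 109 CPM in DMSO and 4.86 and 6.93 CPM on toyocamycin. In all 4 the levels on toyocamycin were close at 24 and 48 h. The exons of HECTD3, SPC24, GBA2, PIMREG and CC2D1A overlap those of a gene on the other strand, so the counts of these 5 are less certain.

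**Figure D2:**
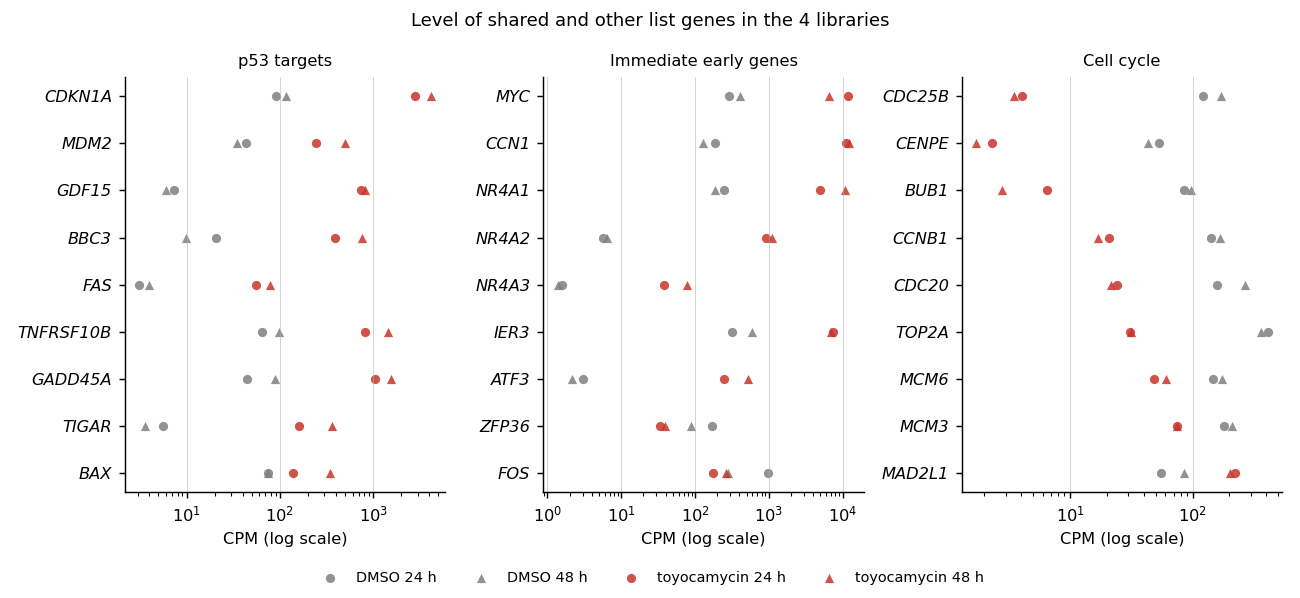
CPM in the 4 libraries (horizontal log axis; circles 24 h, triangles 48 h; grey DMSO, red toyocamycin) of 9 p53 targets, 9 immediate early genes and 9 genes of replication and mitosis, 1 library per symbol. All 9 p53 targets shown lie higher on toyocamycin at both times, whereas 8 of the 9 cell cycle genes lie lower and MAD2L1 lies higher.

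Genes of mitosis and of DNA replication fell as groups. Of 35 genes of mitosis and the kinetochore, 30 were lower and 2 higher at 24 h, and 34 were lower and 1 higher at 48 h. Their medians were -2.13 and -2.32, and they were negative under all 4 scalings. CCNB1, the mitotic cyclin, had 142 and 169 CPM in DMSO and 20.7 and 16.9 CPM on toyocamycin. CDC20, which activates the ligase that ends mitosis, had 159 and 269 CPM in DMSO and 24.2 and 21.7 CPM on toyocamycin. BUB1, a checkpoint kinase, had 85.1 and 97.2 CPM in DMSO and 6.43 and 2.77 CPM on toyocamycin. TOP2A, the topoisomerase of dividing cells, fell about evenly, with a mean log2 fold change of -3.65 ± 0.214 (SE; edgeR adjusted p = 1.6e-09). MAD2L1, the checkpoint protein that restrains CDC20, was the 1 gene of the list higher at both times, with 55.1 and 85.4 CPM in DMSO and 220 and 203 CPM on toyocamycin. BIRC5, which encodes survivin, was higher at 24 h (196 against 305 CPM) and lower at 48 h (215 against 95.6 CPM).

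Replication genes were lower in greater number at 48 h. Of 42 tested, 29 were lower at 24 h and 39 at 48 h, 22 had a lower effect at 48 than at 24 h, and the median went from -1.39 to -2.42. Both arms moved, as 39 of the 42 genes had a higher level at 48 than at 24 h in DMSO (median log2 change 0.38) and 7 on toyocamycin (median -0.59). None was called higher at either time (0 at an unadjusted p under 0.05, 1 by DESeq2 and 0 by edgeR 4 at each time). The medians were negative under all 4 scalings. MCM6, a subunit of the replicative helicase, had like levels on toyocamycin at both times, with 146 and 175 CPM in DMSO and 48.5 and 61.1 CPM on toyocamycin. CDC45, which activates the helicase, went on falling, with 28.9 and 56.9 CPM in DMSO and 7.52 and 2.04 CPM on toyocamycin, a difference of -2.86 ± 0.512 (SE; edgeR adjusted p = 0.00145). TK1, thymidine kinase, had 288 and 310 CPM at 24 h and 285 and 43.5 CPM at 48 h, so that it fell at 48 h only. PCNA, the sliding clamp, was not called at either time taken alone, with 202 and 264 CPM in DMSO and 269 and 332 CPM on toyocamycin.

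The 250 bases before the start of 4 genes that fell at both times are shown because mitotic and replication genes are known to be controlled through different short words in their promoters. The sequences are RefSeq's for GRCh38.p14 and cover 37 of the 42 replication genes and 29 of the 35 mitotic genes. Capitals mark the letters TTTGAA (the CHR element), CCAAT (the CCAAT box) and TTTCCCGC, TTTGGCGC, TTTGCCGC or TTTCGCGC (E2F words), searched on both strands. CDC20 and CCNB1 lie on the plus strand, at chr1:43358731-43358980 and chr5:69166900-69167149. MCM6 and MCM3 lie on the minus strand, at chr2:135876444-135876693 and chr6:52284743-52284992.
CDC20: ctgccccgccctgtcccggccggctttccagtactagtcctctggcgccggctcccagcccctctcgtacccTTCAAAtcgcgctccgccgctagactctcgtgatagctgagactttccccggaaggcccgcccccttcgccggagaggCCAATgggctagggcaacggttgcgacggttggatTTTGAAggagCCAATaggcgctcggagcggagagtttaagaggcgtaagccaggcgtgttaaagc
CCNB1: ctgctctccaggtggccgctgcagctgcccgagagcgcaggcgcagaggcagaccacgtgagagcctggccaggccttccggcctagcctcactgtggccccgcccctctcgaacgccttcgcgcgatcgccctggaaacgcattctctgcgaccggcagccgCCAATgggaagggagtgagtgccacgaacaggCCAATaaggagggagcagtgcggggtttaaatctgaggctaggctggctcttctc
MCM6: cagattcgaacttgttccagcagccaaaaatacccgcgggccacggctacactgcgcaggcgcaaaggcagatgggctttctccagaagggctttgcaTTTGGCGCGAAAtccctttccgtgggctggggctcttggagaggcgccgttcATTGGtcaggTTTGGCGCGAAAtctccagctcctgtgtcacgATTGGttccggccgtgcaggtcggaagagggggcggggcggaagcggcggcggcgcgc
MCM3: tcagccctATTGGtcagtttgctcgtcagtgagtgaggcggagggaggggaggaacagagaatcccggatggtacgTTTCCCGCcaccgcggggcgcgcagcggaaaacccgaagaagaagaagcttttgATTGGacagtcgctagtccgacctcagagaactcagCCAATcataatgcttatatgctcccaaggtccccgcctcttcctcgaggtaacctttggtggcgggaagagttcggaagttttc
The CDC20 window holds the CHR letters 2 times, once read from the other strand as TTCAAA, and CCAAT 2 times. The CCNB1 window holds CCAAT 2 times and no CHR or E2F word. In the MCM6 window, the letters TTTGGCGCGAAA occur 2 times, and each holds a pair of E2F words that overlap on opposite strands. Over the mitotic list, 14 of 29 promoters held the CHR letters (48.3%) and 23 of 29 held CCAAT (79.3%), beside 10.1% and 34.8% of the 14963 promoters of the table. Over the replication list, 15 of 37 held an E2F word (40.5%), beside 3.87% of the table, and 22 of 37 held CCAAT (59.5%). These words were not particular to lists that fell, since of 40 promoters of replication histones, which were mostly higher at 48 h, 16 held the CHR letters (40%), 34 held CCAAT (85%) and 8 held an E2F word (20%). A match of letters is a description and not a binding site, and these shares were not tested.

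The genes of P-TEFb and of pausing, the machinery named in the study, moved in both directions. Of 29 tested, 9 were higher and 11 lower at 24 h, and 11 were higher and 10 lower at 48 h, shares that lie near those of all genes. CDK9 itself (chr9:127785679-127790792) had 67.8 and 71.7 CPM in DMSO and 34.1 and 25 CPM on toyocamycin, a mean log2 fold change of -1.26 ± 0.185 (SE; edgeR adjusted p = 2.03e-05). Its cyclins went the other way. CCNT1 had 44.9 and 48.6 CPM in DMSO and 217 and 362 CPM on toyocamycin, and CCNT2 had 19.4 and 21.6 CPM in DMSO and 153 and 278 CPM on toyocamycin. HEXIM1, which holds P-TEFb inactive, fell, with 111 and 91.2 CPM in DMSO and 41.1 and 44.5 CPM on toyocamycin. SUPT5H, a subunit of the pausing factor DSIF, fell from 163 to 48.9 CPM at 24 h and from 189 to 69.4 CPM at 48 h. Among the other transcriptional kinases, CDK13 rose at both times, to 490 and 396 CPM from 99.7 and 108 CPM, while CDK12 had 133, 153, 153 and 172 CPM in DMSO and toyocamycin at 24 h and then at 48 h and was not called. The differences between the times were not called for these 7 genes.

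Ribosomal protein genes were higher at both times under TMM. Of 83 tested, 79 were higher at 24 h and 81 at 48 h, with 0 lower at either time (0 at an unadjusted p under 0.05, by DESeq2 and by edgeR 4). The medians of 2.15 and 2.08 became -0.12 and 0.23 with mitochondrially encoded genes held constant. Under that scaling most calls were lost, with 1 gene higher and 3 lower at 24 h, and 3 higher and 1 lower at 48 h. The medians of all genes under it were -2.16 and -1.64, and those of the list lay 2.03 and 1.87 above them. Of the 38 genes that make ribosomes, 15 were higher and 15 lower at 24 h, and 18 were higher and 15 lower at 48 h. These counts are not far from the shares of all genes tested. Those were 30.7% higher and 32.0% lower at 24 h, and 39.2% and 35.5% at 48 h. In the BCL2 family, which decides on cell death at mitochondria, 7 of 16 genes were higher at each time. Beside the same shares of all genes, 6 and then 3 of the family were lower. PMAIP1, which encodes the death protein NOXA, had 10.6 and 15.8 CPM in DMSO and 364 and 507 CPM on toyocamycin. The survival genes MCL1 and BCL2L1 also rose. MCL1 went from 182 to 380 CPM at 24 h and from 215 to 479 CPM at 48 h. BCL2L1 went from 124 to 978 CPM and from 117 to 446 CPM, and its log2 fold change at 48 h minus that at 24 h was -1.05 ± 0.279 (SE; edgeR adjusted p = 0.0169).

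Under TMM, glycolysis and hypoxia genes changed direction between the times. Of 25 tested, 13 were higher and 7 lower at 24 h, and 6 were higher and 16 lower at 48 h. A lower effect at 48 h was called for 18 of them, beside 14.8% of all genes tested. The list median went from 0.54 to -1.22, though at 24 h it was -0.47 with library size alone and -1.73 with mitochondrially encoded genes held constant. The medians of all genes at 24 h under these scalings were -0.91 and -2.16. PGK1, phosphoglycerate kinase, had 213 CPM in DMSO and 351 CPM on toyocamycin at 24 h, and 378 and 67.7 CPM at 48 h. TPI1, triose phosphate isomerase, had 508 and 754 CPM at 24 h and 676 and 148 CPM at 48 h. PKM, pyruvate kinase, had 1651 and 6836 CPM at 24 h and 2838 and 2476 CPM at 48 h, when it was not called. The log2 fold change at 48 h minus that at 24 h was -3.20 ± 0.347 for PGK1, -2.75 ± 0.285 for TPI1 and -2.25 ± 0.302 for PKM (SE; edgeR adjusted p = 5.81e-05, 4.17e-05 and 0.000247). PGK1 and TPI1 share exonic bases with ATP7A and SPSB2. Both arms moved. From 24 to 48 h the median change of the list was 0.79 in DMSO, where 23 of 25 genes went up, and -0.81 on toyocamycin, where 9 went up. VEGFA, the angiogenic factor, instead was higher at both times, with 31.4 and 58.3 CPM in DMSO and 119 and 225 CPM on toyocamycin.

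Genes of protein folding in the endoplasmic reticulum were mostly lower at 48 h. Of 24 tested, 9 were higher and 5 lower at 24 h under TMM, when 30.7% and 32.0% of all genes were, and 2 were higher and 17 lower at 48 h. The effect was lower at 48 h for 13 and higher for 0 (0 at an unadjusted p under 0.05, by DESeq2 and by edgeR 4). Among all genes tested, 14.8% had a lower effect at 48 h and 11.1% a higher one. The list median went from 0.27 to -0.63, with a 24 h median of -0.74 under library size alone and -2.0 with mitochondrially encoded genes held constant. The medians of all genes at 24 h under these scalings were -0.91 and -2.16. PDIA6, a disulfide isomerase, had 239 and 775 CPM at 24 h and 360 and 241 CPM at 48 h. HSP90B1, the chaperone GRP94, had 396 and 873 CPM at 24 h and 515 and 345 CPM at 48 h. CALR, calreticulin, was called at 48 h, with 1184 and 382 CPM, and had 1111 and 1397 CPM at 24 h. SEL1L, which serves the disposal of misfolded proteins, was lower at both times, with 150 and 125 CPM in DMSO and 29.9 and 16.6 CPM on toyocamycin. Nuclear genes of oxidative phosphorylation went from 42 higher and 6 lower of 81 at 24 h to 22 higher and 24 lower at 48 h. A lower effect at 48 h was called for 31 of these 81, beside 14.8% of all genes. Their median went from 0.64 to -0.04, and both times were negative under library size alone (-0.37 and -0.65, beside -0.91 and -0.41 for all genes). The 13 mitochondrially encoded genes showed no such turn under TMM, with 12 higher at each time.

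Of 8 markers of colon epithelium, 5 were higher at 24 h under TMM. With library size alone 2 were higher and 4 lower there, when the median of all genes was -0.91. At 48 h, 2 were higher and 5 lower under both scalings. KRT8, a keratin of simple epithelium, had 912 and 1805 CPM in DMSO and toyocamycin at 24 h and 1794 and 668 CPM at 48 h. CDH1, E-cadherin, had 330 and 583 CPM at 24 h and 254 and 130 CPM at 48 h. Both genes were thus called higher at 24 h and lower at 48 h under TMM, and the exons of KRT8 overlap those of KRT18. CDX2, an intestinal transcription factor, was higher at both times, with 279 and 113 CPM in DMSO and 1197 and 477 CPM on toyocamycin. HNF4A, another factor of intestinal and liver cells, was lower at both, with 56.3 and 85.5 CPM in DMSO and 25.4 and 12.1 CPM on toyocamycin.

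Other groups had larger medians at 48 h. Of 42 replication histones, whose mRNAs mostly lack a polyA tail and are little seen in polyA RNA, 19 were higher and 1 lower at 24 h, and 31 were higher and 1 lower at 48 h. Their median went from 1.20 to 3.63, and that at 24 h was -1.03 with mitochondrially encoded genes held constant. All 42 genes together had 130 and 70.1 CPM in DMSO and 331 and 457 CPM on toyocamycin. Most were thus at low levels in DMSO, where log2 fold changes rest on few counts. Both arms moved, as 5 of the 42 went up from 24 to 48 h in DMSO (median log2 change -0.39) and 32 on toyocamycin (median 0.55). H2BC12 had 24.5 and 16.2 CPM in DMSO and 90.0 and 114 CPM on toyocamycin. H2BC5 had 3.49 and 1.09 CPM in DMSO and 11.7 and 38.9 CPM on toyocamycin. Of 354 zinc finger genes named ZNF, most of which encode transcriptional repressors, 193 were higher and 46 lower at 24 h, and 241 were higher and 34 lower at 48 h. Their median went from 1.08 to 1.92 while it was -0.67 at 2 h, and it was -1.09 at 24 h with mitochondrially encoded genes held constant. Of 35 HOX genes, 19 were higher and 6 lower at 24 h, and 27 were higher and 3 lower at 48 h. Among all genes tested, 30.7% were higher and 32.0% lower at 24 h, and 39.2% and 35.5% at 48 h. The HOX median of 0.94 at 24 h was -0.50 with mitochondrially encoded genes held constant, when that of all genes was -2.16. From 24 to 48 h the median log2 change in DMSO was -0.26 for zinc finger and -0.33 for HOX genes, against 0.30 and 0.22 on toyocamycin. HOXA11, a gene of limb and reproductive tract patterning, had 5.45 and 9.24 CPM in DMSO and 142 and 150 CPM on toyocamycin.

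**Figure D3:**
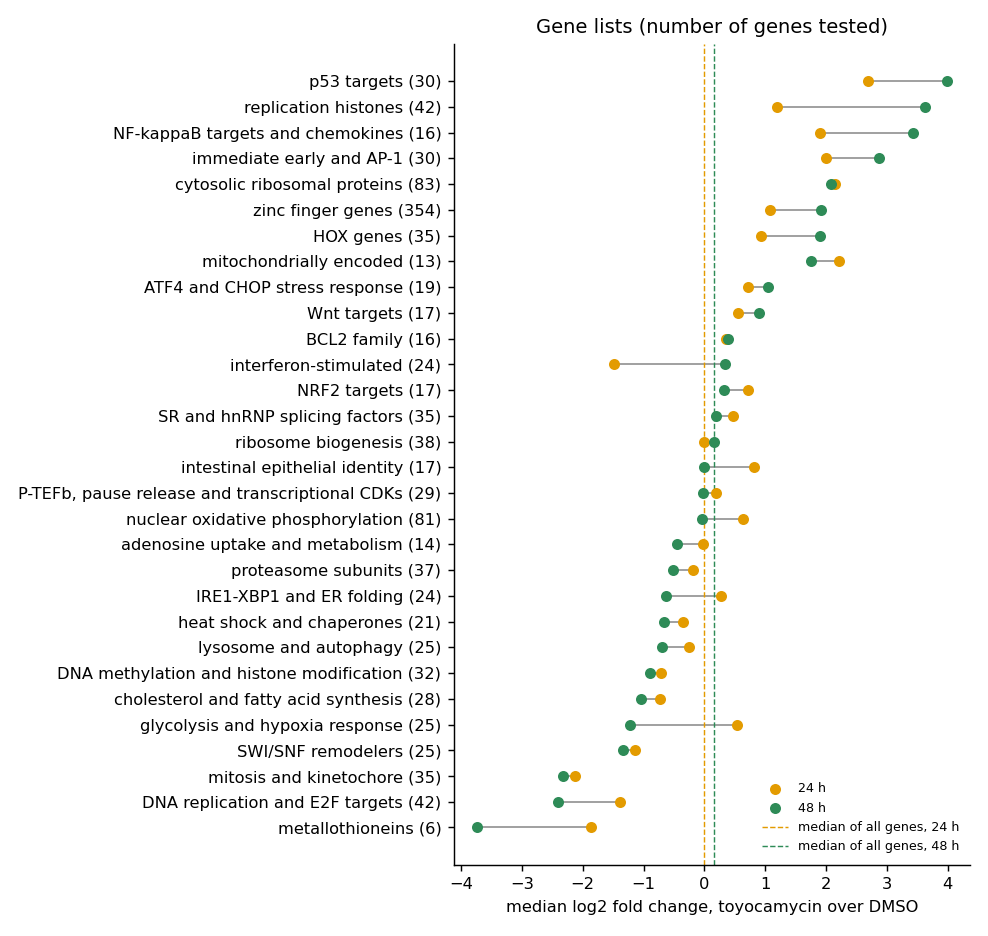
Median log2 fold change of toyocamycin over DMSO in 30 gene lists at 24 h (orange) and 48 h (green), with the number of genes tested in brackets and dashed lines at the medians of all genes. Long bars mark lists whose median differs between the times, such as replication histones (1.20 and 3.63) and glycolysis and hypoxia (0.54 and -1.22), while the 2 points of ribosomal proteins (2.15 and 2.08) nearly coincide.

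Among genes called at 24 h only, DCLK1, a microtubule-binding kinase, had 1.38 CPM in DMSO and 27.3 CPM on toyocamycin at 24 h, and 24 and 28 CPM at 48 h. The DMSO arm had thus reached the level of toyocamycin by 48 h, and the difference between the effects was -4.07 ± 0.631 (SE; edgeR adjusted p = 0.000553). FOXQ1, a forkhead factor, showed the other course. It had 245 and 237 CPM in DMSO, and 1418 CPM on toyocamycin at 24 h against 172 CPM at 48 h. In CCDC71L, GJB2 and NTSR1 both arms moved towards each other. GJB2, a connexin of gap junctions, had 45.1 and 260 CPM at 24 h and 155 and 120 CPM at 48 h, and NTSR1, the receptor of neurotensin, had 169 and 955 CPM at 24 h and 547 and 546 CPM at 48 h. The 5 largest falls of 24 h only, by the rule for named genes, were those of FOS, ZSWIM8, ARHGAP23, XPC and MBD6. MBD6, a protein with a methyl-CpG binding domain, had 53.4 and 15.7 CPM at 24 h and 49.9 and 63.4 CPM at 48 h, and its exons overlap those of DDIT3 and DCTN2 on the other strand.

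At 48 h only, TXNIP, which binds thioredoxin and limits glucose uptake, had 6.02 CPM in DMSO and 215 CPM on toyocamycin, after 186 and 254 CPM at 24 h. Here it was the DMSO library of 48 h that stood apart, and the difference was 4.70 ± 0.359 (SE; edgeR adjusted p = 7.18e-06). EFNA2, an ephrin, moved mainly on toyocamycin, from 11.1 to 115 CPM, with 19.8 and 11 CPM in DMSO. The 5 largest falls of 48 h only were in genes of metabolism and protein folding. PGM1, which feeds glycogen into glycolysis, had 31.3 and 26.7 CPM at 24 h and 67.5 and 4.40 CPM at 48 h. MAOB, a monoamine oxidase of mitochondria, had 38.6 and 50.7 CPM at 24 h and 47.1 and 5.38 CPM at 48 h. BCKDHB, of the breakdown of branched-chain amino acids, had 22.9 and 23.4 CPM at 24 h and 17 and 1.63 CPM at 48 h. AGPAT2, of phospholipid synthesis, and DNAJC10, a reductase of the endoplasmic reticulum, had 17.5 and 7.42 CPM on toyocamycin at 48 h against 249 and 103 CPM in DMSO. In these 5 genes the level on toyocamycin at 48 h was the lowest of the 4 libraries.

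Of the genes with opposite directions, TNC, the matrix protein tenascin C, had 3.11 CPM in DMSO and 35.5 CPM on toyocamycin at 24 h, and 24.5 and 8.48 CPM at 48 h, a difference of -5.04 ± 0.387 (SE; edgeR adjusted p = 7.18e-06). KRT16, a keratin of stressed epithelium, had 8.13 and 35.8 CPM at 24 h and 108 and 16.9 CPM at 48 h. KLK10, a secreted protease, had 304 and 467 CPM at 24 h and 733 and 69.4 CPM at 48 h. In these 3 genes the DMSO level was higher at 48 than at 24 h and the toyocamycin level was lower. In the other order, TUG1, best known as a long noncoding RNA, had 74.3 and 45.8 CPM at 24 h and 37.1 and 354 CPM at 48 h. CELSR3, a cadherin of planar polarity, had 15.8 and 6.09 CPM at 24 h and 12.7 and 66.5 CPM at 48 h. At the last time point, 289 of the 299 genes that went from higher to lower were called lower (96.7%, beside 41.9% of all genes), and 128 of the 141 that went from lower to higher were called higher (90.8%, beside 47.0%).

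**Figure D4:**
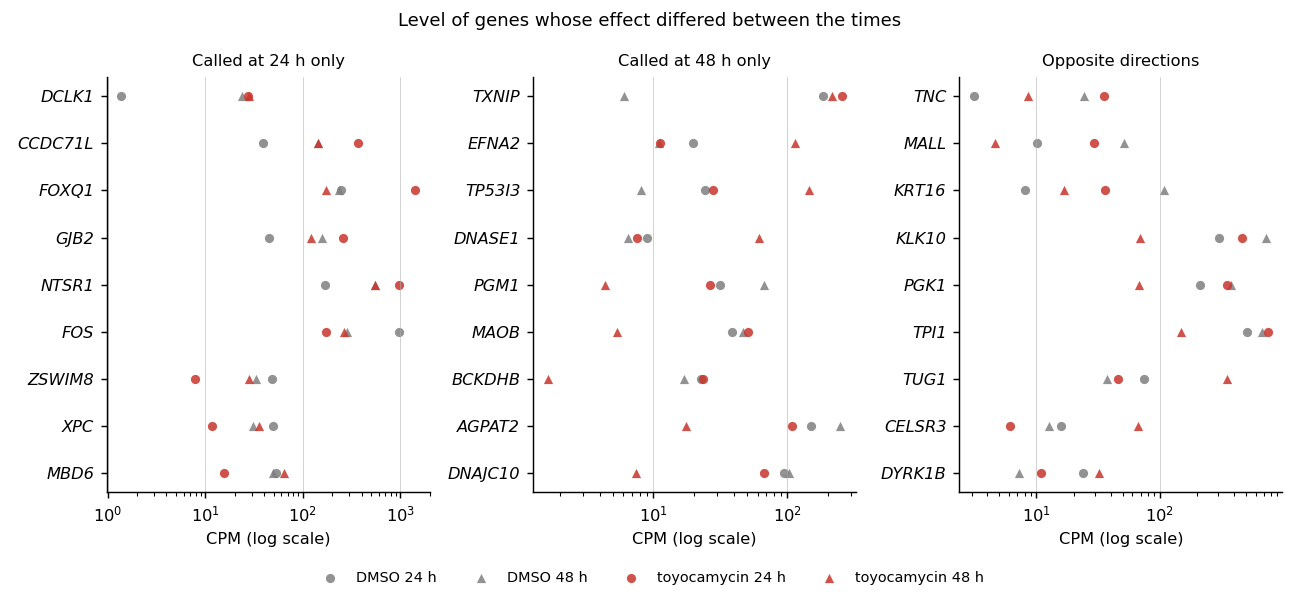
CPM in the 4 libraries (horizontal log axis; circles 24 h, triangles 48 h; grey DMSO, red toyocamycin) of genes called at 24 h only, at 48 h only and in opposite directions, 1 library per symbol. In the left panel the triangles of both arms lie close together, in the middle panel the red triangle stands apart except for TXNIP, whose grey triangle does, and in the right panel red lies on opposite sides of grey for circles and triangles.

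Many genes that were near silence in DMSO were detected on toyocamycin. At most 3 counts in both DMSO libraries were found for 6318 genes. Of these, 829 had more than 3 counts on toyocamycin at 24 h, 1798 at 48 h and 700 at both times, while the 6318 genes together held 0.0858% of the counts at 24 h and 0.320% at 48 h. Of the genes higher at both times, 594 were of this kind, and of those lower at both times, 34 had at most 3 counts in both toyocamycin libraries. RNF225, a ring finger protein, had 2 and 0 counts in DMSO and 983 and 2792 counts on toyocamycin. Its ratio was 876 at 24 h (95% counting interval 242 to 7247), and at 48 h its level was at least 1601-fold higher against a floor of 3 counts in the DMSO library. ALKAL2, a ligand of the ALK receptor, had 0 counts in both DMSO libraries and was at least 240-fold higher at 24 h and at least 408-fold higher at 48 h. NPR3, the clearance receptor of natriuretic peptides, also had 0 counts in DMSO and was at least 217-fold higher at 24 h and at least 423-fold higher at 48 h. BAAT, a liver enzyme that conjugates bile acids, had 0 and 2 counts in DMSO and 661 and 1093 counts on toyocamycin. In the other direction, NYNRIN had 709 and 227 counts in DMSO and 3 and 2 counts on toyocamycin, and GK, glycerol kinase, had 79 and 86 counts in DMSO and 0 and 1 counts on toyocamycin. The intervals and floors describe counting error alone, as several reads can stem from 1 molecule.

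A property that the choice of libraries did not use, exon number, went with the TMM-scaled effect of toyocamycin at both times. Among 11721 genes with an average of at least 1 CPM, the 244 genes with a single exon had median log2 fold changes of 1.61 at 24 h and 2.02 at 48 h. The median was 0.86 and 0.92 for genes with 2 to 4 exons, 0.29 and 0.13 for 5 to 9, -0.50 and -0.69 for 10 to 19, and -1.17 and -1.33 for the 1812 genes with 20 exons or more. Of the genes with a single exon 67.2% were called higher at 24 h and 71.3% at 48 h, while of those with 20 exons or more 65.9% and 68.3% were called lower. The order was the same without genes of cytosolic ribosomal proteins, replication histones, zinc fingers, nuclear oxidative phosphorylation and the immediate early list. Their removal left medians from 1.60 to -1.17 at 24 h and from 1.79 to -1.33 at 48 h. The order also held among genes of at least 20 CPM in DMSO (from 1.63 to -1.33 and from 1.19 to -1.64). Within each range of gene length it held for the groups with enough genes, but no range had all 5 groups. At 2 h the medians of the same 5 groups lay between -0.15 and 0.07. At the last time point they were 2.28, 0.86, -0.02, -0.81 and -1.54, from the fewest exons to the most. The order was thus not particular to 24 and 48 h. Genes are not independent replicates, so no p is given, and the cause of this pattern was not tested.

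**Figure D5:**
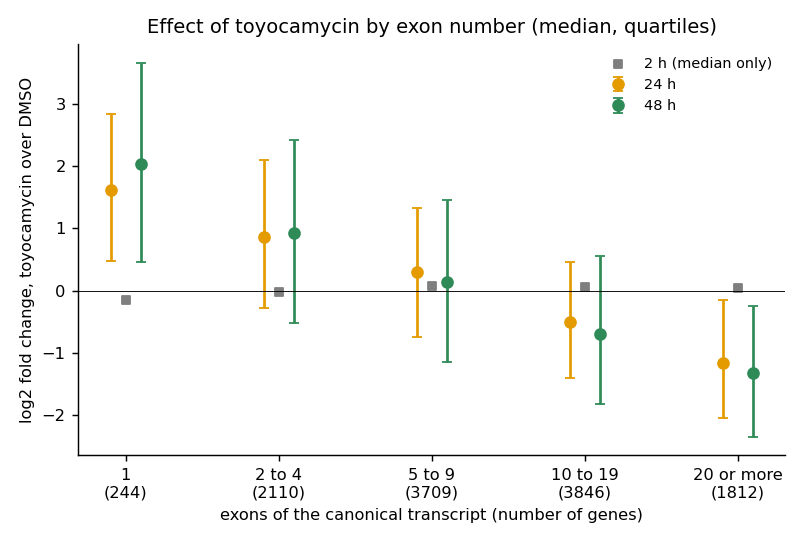
Log2 fold change of toyocamycin over DMSO (vertical axis) by the number of exons of the canonical transcript (horizontal axis, number of genes in brackets); points are medians and bars the quartiles over genes, with the medians at 2 h as grey squares. The medians fall from 1.61 to -1.17 at 24 h and from 2.02 to -1.33 at 48 h.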

How the data were processed

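PolyA RNA of YB5 cells was sequenced as paired ends in 17 libraries, 4 of which form the comparison reported here. Per the labels, reads were aligned with STAR 2.7.5a to GRCh38 and analysed with edgeR, and the values used here are the raw read counts per gene that the authors deposited in 1 matrix. The strand setting of the counting is not given in the sources used here. Of the columns of the matrix, 1 that matched no sample's title was not used. A table of the authors' own comparisons, holding fold changes and p-values, was not used.

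Samples were grouped by treatment and time as labelled. Counts of 14 libraries, without those of 10 h, which are unbalanced over batches, were filtered with filterByExpr, scaled with TMM and fitted as group means in edgeR 4.0.16 (R 4.3.3; quasi-likelihood test, legacy form), which left 14491 genes and 6 residual degrees of freedom. Contrasts gave the effect at 24 h, at 48 h, their mean and their difference, with Benjamini-Hochberg adjusted p under 0.1 as a call. Each SE was derived from the test, as the size of the log2 fold change divided by the square root of its F statistic. With 1 library per arm at 24 and 48 h, residual spread came from the replicates of 2 h and of the last time point. Nothing in the labels says whether replicates came from separate cultures, so p-values measure the spread between these samples. Depth was 16003406 to 22121364 counts per library here, and it limits genes of a few counts most.

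Named genes were the 10 strongest in each direction among genes called alike at 24 and 48 h (ranked by the smaller of the 2 effects, average log2 CPM 4 or more, over 3 counts in all 4 libraries), then those switched between at most 3 counts and expression, the 5 largest in each direction at 1 time only or in opposite directions, and examples from 30 gene lists. Members and lists were chosen with earlier results of these data known, and list examples were picked after their values were seen. Gene positions and exons came from the GENCODE annotation of GRCh38, and promoters from RefSeq (GRCh38.p14).

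Alternatives were other scalings (DESeq2 1.42.0 size factors, library size alone, mitochondrially encoded genes held constant), DESeq2 and the edgeR 4 form as tests, other filters, thresholds and library sets, a replicate block, and each replicate left out in turn. Tables and plots were made with Python 3.11.15, pandas 2.3.3, numpy 2.4.6, scipy 1.17.1 and matplotlib 3.10.9.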

Additional observations from a re-analysis of the deposited data

Results flagged for a closer look

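The effect of toyocamycin differed between 24 and 48 h, by a test of the difference itself, for 1613 genes in the higher direction and 2142 in the lower direction. With 1 library per arm and time, this test rests on the spread of the other times.

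Among the named genes, the log2 fold change at 48 h minus that at 24 h was as follows. Of the genes with the largest shared changes, BHLHE41 differed by 3.80, ATF3 by 1.51 and PIMREG by -1.35. CORO7, which had 0 counts on toyocamycin at 24 h and shares exons with a readthrough gene, differed by 5.42. Of the genes called at 24 h only, DCLK1 differed by -4.07, CCDC71L by -3.27, FOXQ1 by -2.99, GJB2 by -2.90 and NTSR1 by -2.50, while FOS differed by 2.38, ZSWIM8 by 2.37, ARHGAP23 by 2.28, XPC by 2.27 and MBD6 by 2.11. Of those called at 48 h only, TXNIP differed by 4.70, EFNA2 by 4.21, TP53I3 by 3.98, DNASE1 by 3.47 and ZC3H6 by 2.98, while PGM1 differed by -3.71, MAOB by -3.52, BCKDHB by -3.41, AGPAT2 by -3.36 and DNAJC10 by -3.30. Of those with opposite directions, TNC differed by -5.04, MALL by -4.99, KRT16 by -4.81, ASIC1 by -4.06 and KLK10 by -4.02, while TUG1 differed by 3.96, CELSR3 by 3.77, MDC1 by 3.47, SYNE3 by 3.45 and DYRK1B by 3.29. The exons of PIMREG, ZSWIM8, XPC, MBD6, TP53I3, DNASE1, PGM1, MDC1 and DYRK1B overlap those of other genes. The causes of these differences were not tested.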

How the results depend on the processing

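Of the recomputed counts of genes, 360 stayed within 1.5 times the reported one and 33 did not. With library size alone, 2192 genes were higher and 7559 lower at 24 h, 3614 were higher for the mean effect, 2850 were higher and 1290 lower for the difference between the times, 1902 were higher and 5867 lower at both times, and 3020 were higher for the mean effect against that at 2 h. With mitochondrially encoded genes held constant, 432 were higher and 8714 lower at 24 h, 1630 higher at 48 h, 1274 higher and 9131 lower for the mean, 172 higher and 6 lower for the difference, 378 higher and 6870 lower at both times, 88 opposite, 48 called at 24 h only and 63 at 48 h only, and against the last time point 480 were higher, and against 2 h 845 higher and 7619 lower. The additive fit on the 4 libraries called 3114 higher and 3202 lower. With the spread of 2 h alone, the difference was called for 824 and 1342 genes, and 266 were opposite, 372 called at 24 h only and 813 at 48 h only. With that of the last time point alone, all of batch 1, the difference was called for 2179 and 2376 genes. At an adjusted p under 0.05, the difference was higher for 1064 genes and 289 were opposite, and with log2 fold changes of at least 1, 138 were opposite. Leaving out 1 replicate in turn gave ranges of 4329 to 4565 higher and 4506 to 4723 lower at 24 h, 5528 to 5832 and 5033 to 5222 at 48 h, 1436 to 1844 and 1916 to 2358 for the difference, and 3404 to 3604 and 3583 to 3778 at both times. Replicate numbers did not pair the samples of the last time point, where same-numbered arms correlated at -0.13, 0.06 and -0.12. At 2 h, where the number is also the batch, they correlated at 0.34. With the replicate block, 4226 genes were higher and 4490 lower at 24 h, 5388 and 5090 at 48 h, and 1330 and 1996 for the difference. With mitochondrially encoded genes held constant, the mean effect reversed for BAX (-0.51), DDB2 (-1.67), MAD2L1 (-0.44), PCNA (-1.69), CDK12 (-1.88), PKM (-1.13), VEGFA (-0.13), PDIA6 (-1.50), HSP90B1 (-1.78) and MCL1 (-0.95), the effect at 24 h for MALL (-0.74), KRT16 (-0.14), ASIC1 (-1.12) and KLK10 (-1.65), and the effect at 48 h for MDC1 (-1.24). With library size alone, those of DDB2 (-0.42), PCNA (-0.44), CDK12 (-0.63), PDIA6 (-0.25), HSP90B1 (-0.53), KLK10 (-0.40) and MDC1 (-0.00713) reversed. The scalings set the direction of many calls, and the cause of the shift between them was not tested. With 1 library per arm at 24 and 48 h, a fault in 1 of these libraries cannot be told apart from an effect of time.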

Other observations

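Beside the list counts of this section, 30.7% of all genes tested were higher and 32.0% lower at 24 h, and 39.2% and 35.5% at 48 h. Genes that set chromatin states were lower more often than higher. Of 32 genes of DNA methylation and histone modification, 8 were higher and 18 lower at each time, with medians of -0.72 and -0.90. DNMT1, which copies DNA methylation, had 310 and 422 CPM in DMSO and 103 and 32.6 CPM on toyocamycin, and DNMT3B, which sets new methylation, had 16.4 and 15.2 CPM in DMSO and 1.37 and 0.652 CPM on toyocamycin. HDAC1, a histone deacetylase, was higher at 24 h (163 against 300 CPM) and lower at 48 h (168 against 33.5 CPM). KDM6B, a demethylase of histone H3, was higher at both times, with 29.5 and 64.3 CPM in DMSO and 134 and 666 CPM on toyocamycin. Of 25 genes of SWI/SNF remodelers, 7 were higher and 14 lower at 24 h, and 3 were higher and 17 lower at 48 h. SMARCA4, an ATPase of the complex, had 342 and 448 CPM in DMSO and 73.5 and 49.8 CPM on toyocamycin.

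Among signalling and stress lists, 3 of 24 interferon-stimulated genes were higher and 14 lower at 24 h. At 48 h, 7 were higher and 9 lower. Their median went from -1.49 to 0.34, though it was -0.26 at 48 h with library size alone, when that of all genes was -0.41. Their summed level was lower on toyocamycin at both times, with 465 and 415 CPM in DMSO and 189 and 154 CPM on toyocamycin. Of 16 NF-kappaB targets and chemokines, 5 were higher and 3 lower at 24 h and 9 were higher and 2 lower at 48 h. Of 19 genes of the ATF4 and CHOP response, 11 were higher at each time. At 24 h 0 were lower (0 at an unadjusted p under 0.05, by DESeq2 and by edgeR 4), and 2 were lower at 48 h. Their median of 0.72 at 24 h was -0.29 with library size alone, when that of all genes was -0.91. Of 17 Wnt targets, 8 were higher at each time and 4 and then 5 were lower. EPHB2, a receptor of crypt cells, had 95.1 and 109 CPM in DMSO and 46.8 and 12.7 CPM on toyocamycin. Of 28 genes of cholesterol and fatty acid synthesis, 17 were lower at 24 h and 18 at 48 h, and 3 and 4 were higher. Of 6 metallothioneins, which bind zinc and copper, 4 were lower at 24 h and 5 at 48 h. MT2A had 183 and 153 CPM in DMSO and 57.1 and 11.6 CPM on toyocamycin. Of 21 heat shock genes and chaperones, 4 were higher and 6 lower at 24 h, when 30.7% and 32.0% of all genes were. At 48 h, 2 were higher and 14 lower. HSPA8, the constitutive HSP70, had 1151 and 1821 CPM in DMSO and 137 and 97.3 CPM on toyocamycin.

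The remaining lists were mixed under TMM. With library size alone, the median of all genes at 24 h was -0.91. The calls were then 4 higher and 7 lower for intestinal identity, 3 and 7 for NRF2 targets, and 1 and 8 for adenosine metabolism. They were 2 and 28 for proteasome subunits, and 6 and 16 for splicing factors. Relative to the median of all genes, the list medians under that scaling were 0.87 for intestinal identity, 0.76 for NRF2 targets and 0.37 for splicing factors. Those of adenosine metabolism and proteasome subunits were -0.02 and -0.30. Under TMM, intestinal identity genes were 9 higher and 1 lower of 17 at 24 h and 5 higher and 8 lower at 48 h, NRF2 targets were 8 higher and 2 lower of 17 and then 6 higher and 5 lower, and genes of adenosine uptake and metabolism were 4 higher and 4 lower of 14 and then 3 higher and 7 lower. Proteasome subunits were 13 higher and 13 lower of 37 at 24 h and 10 higher and 19 lower at 48 h. SR and hnRNP splicing factors were 17 higher and 6 lower of 35 and then 16 higher and 11 lower. Lysosome and autophagy genes were 8 higher and 10 lower of 25 and then 6 higher and 13 lower. At 24 h the counts of adenosine, proteasome and lysosome genes lay near the shares of all genes (30.7% higher and 32.0% lower).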
